A study of Mus musculus with 12 samples.

Results

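Trbv19 is 1 of the variable (V) genes of the mouse T cell receptor β chain, and the clonotypes described here were chosen by their annotation: every TRBC (β chain) clonotype whose V region was listed as V19. They numbered 82013 of 968766 TRBC clonotypes and of 1502315 clonotypes of all chains over 12 libraries. A second selection rested on measured values: the amino acid CDR3s of Trbv19 clonotypes that were listed in 2 or more of the 4 tumor libraries. There were 704 of these recurrent CDR3s among 11764 Trbv19 tumor CDR3s, and the other 11060 were listed in 1 tumor library. The cells were CD8+ T cells taken with CD8 microbeads from the tumors, spleens and tumor-draining lymph nodes (tdLNs) of wild-type mice bearing a syngeneic head and neck squamous cell carcinoma. Mice received control IgG, IL-10-Fc (interleukin-10 fused to an antibody Fc part), αCSF1R (an antibody that blocks the receptor for colony-stimulating factor 1) or BF10 (a fusion of both). The labels give 30 mg/kg for every agent, in 3 doses with 3 days between them, while the methods of the study give doses that differ by agent. Each library pooled the RNA of 3 mice, and 1 library was made per treatment and tissue, so no difference between treatments has a replicate check. The measured RNA was that of receptor chains alone, so markers of CD8+ cells could not be checked.

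A β chain is assembled in the thymus by joining 1 V, 1 D and 1 J gene segment, with bases trimmed from and added to the ends. The CDR3 loop spans this junction and lies over the peptide held by a major histocompatibility complex molecule, while the other loops are encoded in the V gene. Trbv19 encodes the chain known from antibody staining as Vβ6. Different base sequences can encode the same CDR3, and CDR3s close to the germline sequence are made often.

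Trbv19 lies on chromosome 6 of GRCm38, at chr6:41178375-41179048 on the plus strand. Its last bases open the CDR3 and encode its first 5 residues and the first base of the next codon, so that a CDR3 with little trimming starts with the residues CASSI. The germline ends below are shown because the leading CDR3s of the control IgG and αCSF1R tumors differ little from them, and the CDR3 sequences are the clonotypes with the most Trbv19 UMIs of each tumor library and the most widely shared CDR3. All are written 5′ to 3′, with bases that match the germline V or J end in lower case and the bases between these ends in capitals. The germline segments are chr6:41179033-41179048 for the V end and chr6:41542754-41542775 for the Trbj2-1 start, and Trbd1 is chr6:41533201-41533212, all on the plus strand.
Trbv19 germline end: tgtgccagcagtatag
Trbj2-1 germline start: taactatgctgagcagttcttc
Trbd1 germline: gggacagggggc
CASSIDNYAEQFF, control IgG tumor: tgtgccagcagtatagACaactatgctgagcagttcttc
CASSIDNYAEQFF, αCSF1R tumor: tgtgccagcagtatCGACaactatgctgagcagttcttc
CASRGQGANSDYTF, IL-10-Fc tumor: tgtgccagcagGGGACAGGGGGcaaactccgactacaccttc
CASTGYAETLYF, BF10 tumor: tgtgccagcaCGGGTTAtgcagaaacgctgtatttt
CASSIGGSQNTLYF, most UMIs in the BF10 tumor: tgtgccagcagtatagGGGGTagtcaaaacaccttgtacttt
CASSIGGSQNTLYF, most UMIs in the IL-10-Fc tumor: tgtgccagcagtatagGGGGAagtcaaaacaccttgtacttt

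The depth was counted in unique molecular identifiers (UMIs) with at least 3 reads, each standing for 1 tagged cDNA molecule. The libraries held 32784 to 210616 TRBC UMIs, with the fewest in the αCSF1R tumor, and 5960 to 20506 Trbv19 UMIs. Intervals below are 95% Wilson intervals on UMI or clonotype counts and cover counting error only. UMIs with at least 7 reads made up 37.5% to 70.1% of Trbv19 UMIs in 10 libraries, but 11.8% in the αCSF1R tdLN and 9.66% in the BF10 tdLN, and the values that move with this read minimum are given with the other settings in the closing section. A larger share of UMIs may come from more cells or from more receptor RNA per cell, and these cannot be told apart in RNA of mixed cells.

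Trbv19 took 13.2% of TRBC UMIs in the control IgG tumor (13.0% to 13.4%), 10.7% in the IL-10-Fc tumor (10.5% to 10.9%), 18.2% in the αCSF1R tumor (17.8% to 18.6%) and 10.2% in the BF10 tumor (10.02% to 10.3%). In spleens the share was 9.77% under control IgG, 10.2% under IL-10-Fc, 11.4% under αCSF1R and 8.51% under BF10. In tdLNs it was 9.10%, 9.00%, 9.74% and 8.78% in the same order. The αCSF1R library was thus the highest and the BF10 library the lowest in each tissue, and the tumors spanned the widest range. The intervals of the control IgG and αCSF1R tumors did not overlap with those of any other tumor library. Counted in clonotypes, the tumors lay closer together, at 8.55% under control IgG (8.00% to 9.13%), 8.68% under IL-10-Fc, 10.03% under αCSF1R (8.91% to 11.3%) and 8.49% under BF10 (8.31% to 8.67%). The spread among tumors was smaller in clonotypes than in UMIs, as the plot of both shares shows. The interval of the αCSF1R tumor still lay above that of the BF10 tumor, but near-identical clonotypes were not merged for these shares. Of the Trbv19 clonotypes of the αCSF1R tumor, 5.6% had 9 residues, the length of a large clonotype there, against 0.0783% in the BF10 tumor. Whether the αCSF1R share would stay higher after merging was not tested.

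**Figure D1:**
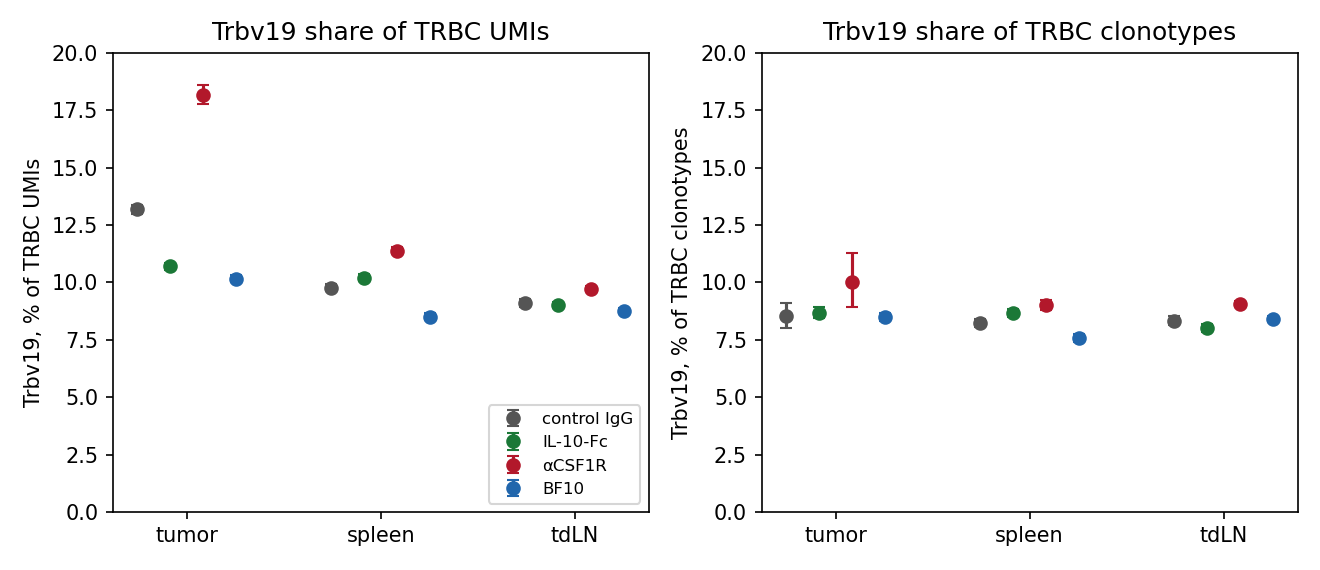
Trbv19 as a percentage of TRBC UMIs (left) and of TRBC clonotypes (right) in each of the 12 libraries, with 95% Wilson intervals. In UMIs the αCSF1R tumor (18.2%) and the control IgG tumor (13.2%) stand above the other 10 libraries, while in clonotypes all libraries lie between 7.58% and 10.03%.

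Against the control IgG tumor, the Trbv19 share was 0.812-fold in the IL-10-Fc tumor (0.794 to 0.830), 1.38-fold in the αCSF1R tumor (1.34 to 1.42) and 0.771-fold in the BF10 tumor (0.755 to 0.787). None of these passed 1.5-fold in either direction, which 68.2% of the 22 Trbv genes tested passed for IL-10-Fc, 63.6% under αCSF1R and 68.2% under BF10. Trbv19 was thus outside the majority of Trbv genes that passed this fold in each treated tumor. The order of BF10 and control IgG rested on 1 clonotype. Without the leading Trbv19 clonotype of each library, the share was 9.32% in the control IgG tumor, 10.4% in the IL-10-Fc tumor, 14.8% in the αCSF1R tumor and 10.1% in the BF10 tumor, and the BF10 share was 1.08 times that of control IgG.

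Against the tdLN of the same treatment, the Trbv19 share of the tumor was 1.45-fold under control IgG (1.42 to 1.48), 1.19-fold under IL-10-Fc (1.16 to 1.21), 1.87-fold under αCSF1R (1.82 to 1.92) and 1.16-fold under BF10 (1.14 to 1.18). The tumor was higher in all 4 treatments, but 1.5-fold was passed for αCSF1R alone. The share of Trbv genes that passed it in either direction was 63.6% under control IgG, 22.7% under IL-10-Fc, 68.2% under αCSF1R and 31.8% under BF10.

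In order of the mean share over the 12 libraries, Trbv19 came after Trbv16 and before Trbv29. In tumors these shares were 13.1% ± 3.66 for Trbv19, 13.0% ± 4.58 for Trbv16 and 9.64% ± 4.87 for Trbv29 (SD over 4 treatments, with n = 1 library each), and their ranges overlapped. In spleens, the ranges of Trbv16 (10.4% to 11.3%) and of Trbv29 (9.39% to 14.2%) overlapped that of Trbv19 (8.51% to 11.4%). In tdLNs, the lowest Trbv19 share (8.78%) lay above the highest Trbv29 share (8.02%), and the range of Trbv16 (9.52% to 11.1%) overlapped that of Trbv19 at its upper end (9.74%). The 3 Trbv genes whose log2 share followed that of Trbv19 most closely over the 12 libraries were Trbv16 (Pearson r = 0.66), Trbv17 (0.62) and Trbv2 (0.60). These correlations are descriptions, since the shares of a library add up to 100% and the libraries are not replicates.

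The Trbv19 clonotypes of the tumors fell into few large ones under control IgG and αCSF1R and many small ones under IL-10-Fc and BF10. There were 809 clonotypes in the control IgG tumor, 4756 in the IL-10-Fc tumor, 250 in the αCSF1R tumor and 7663 in the BF10 tumor, from 13718, 13922, 5960 and 17791 Trbv19 UMIs. In the control IgG tumor 7 clonotypes each held at least 0.1% of TRBC UMIs and together 61.7% of Trbv19 UMIs. In the αCSF1R tumor 8 such clonotypes held 75.7%, in the IL-10-Fc tumor 3 held 6.44%, and in the BF10 tumor there were 0, as in each spleen and tdLN. The same contrast held over all TRBC clonotypes of these libraries, so it was not particular to Trbv19. Clonotypes of at least 0.1% of TRBC UMIs numbered 76 of 9466 in the control IgG tumor, 23 of 54779 in the IL-10-Fc tumor, 76 of 2493 in the αCSF1R tumor and 3 of 90267 in the BF10 tumor, and held 50.2%, 5.11%, 61.5% and 0.448% of TRBC UMIs. The inverse Simpson index of Trbv19, the number of equally large clonotypes that would give the same chance of drawing a clonotype again, was 6.76 under control IgG, 8.54 under αCSF1R, 559 under IL-10-Fc and 3561 under BF10.

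The leading Trbv19 clonotypes of the control IgG and αCSF1R tumors encoded the same CDR3, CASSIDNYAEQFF, joined to Trbj2-1. In the control IgG tumor it had 4434 UMIs, which was 4.26% of TRBC UMIs (4.14% to 4.39%) and 32.3% of Trbv19 UMIs. In the αCSF1R tumor it had 1303 UMIs, which was 3.97% of TRBC UMIs (3.77% to 4.19%) and 21.9% of Trbv19 UMIs. Their base sequences differed by A15C, counted from 1 at the 5′ end of the CDR3, with the control IgG base first, and both codons encode the isoleucine of residue 5. As the sequences printed above show, 2 bases lay between the germline ends in the control IgG tumor and 4 in the αCSF1R tumor, against means of 10.8 and 11.4 over all Trbv19 clonotypes of these libraries. The base sequence of either tumor was not listed in the other, where the remaining UMIs of this CDR3 (14 in control IgG and 7 in αCSF1R) belonged to other bases.

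Elsewhere this CDR3 was rare. With all base sequences, it had 4448 UMIs in the control IgG tumor, 1310 in the αCSF1R tumor, 5 in the BF10 tumor and 0 in the IL-10-Fc tumor, where 0 allows a share of up to 0.00231% of TRBC UMIs. In tdLNs it had 4 UMIs under control IgG, 9 under αCSF1R, 1 under BF10 and 0 under IL-10-Fc, and in spleens 2 under IL-10-Fc and 0 for the others. The 2 base sequences crossed between treatments at these low counts. The bases of the control IgG tumor had 2 UMIs in the control IgG tdLN, 1 in the αCSF1R tdLN and 1 in the BF10 tumor. The bases of the αCSF1R tumor had 8 UMIs in the αCSF1R tdLN, 2 in the control IgG tdLN, 4 in the BF10 tumor and 2 in the IL-10-Fc spleen. Whether these few UMIs came from cells of those tissues or from the tumor libraries was not tested. Under other V regions the same CDR3 was listed with Trbv16 alone, with 1 UMI in the αCSF1R spleen and 1 in the BF10 tdLN.

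The leading Trbv19 clonotype of the IL-10-Fc tumor, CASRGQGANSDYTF with Trbj1-2, had 399 UMIs, or 0.307% of TRBC UMIs (0.278% to 0.338%). All 11 bases between its germline ends match Trbd1. It was listed with 17 UMIs in the IL-10-Fc tdLN and in no other library. The leading clonotype of the BF10 tumor, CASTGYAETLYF with Trbj2-3, had 113 UMIs, or 0.0645% of TRBC UMIs (0.0537% to 0.0776%), with 9 UMIs in the BF10 tdLN and 2 in the BF10 spleen. The leading clonotype of each of these tumors was thus listed only in libraries of its own treatment, while that of control IgG and that of αCSF1R were not.

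Leading Trbv19 clonotypes outside tumors were smaller. In spleens they were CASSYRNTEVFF for IL-10-Fc with 20 UMIs, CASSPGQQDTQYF for αCSF1R with 27 UMIs, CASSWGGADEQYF for BF10 with 27 UMIs and a CDR3 of 15 residues for control IgG with 22 UMIs. In tdLNs they were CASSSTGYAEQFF for control IgG with 79 UMIs, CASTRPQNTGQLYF for IL-10-Fc with 71 UMIs, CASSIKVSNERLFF for αCSF1R with 93 UMIs and a CDR3 of 16 residues for BF10 with 101 UMIs. The last of these was also listed with 93 UMIs in the BF10 tumor and in no other library. Its bases are shown because they hold the whole of Trbd1.
BF10 tdLN and tumor: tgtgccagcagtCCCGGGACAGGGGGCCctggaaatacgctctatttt

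As listed, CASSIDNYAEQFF had the most 1-residue neighbours of the recurrent CDR3s, that is, Trbv19 tumor CDR3s of the same length that differ from it at 1 residue. It had 44 neighbours, 32 of them in the control IgG or αCSF1R tumor. After clonotypes that differ by 1 base and are at least 10-fold smaller were merged into the larger one of the same library, 16 neighbours were left, 2 of them in the control IgG or αCSF1R tumor, and 59 recurrent CDR3s had more. Beside the large clonotypes of these tumors, the rule removes most 1-base variants whatever their origin. The low number left there and the place among recurrent CDR3s were therefore largely set in advance. Of the 16, 15 were listed in the IL-10-Fc or BF10 tumor and 14 in a spleen or tdLN. The largest were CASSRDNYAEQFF (I5R, counted from the first residue) with 14 UMIs in the IL-10-Fc tumor and 9 in the BF10 tumor, and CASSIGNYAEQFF (D6G) with 3 UMIs in the IL-10-Fc tumor and 13 in the BF10 tumor. In the αCSF1R tumor the neighbour left was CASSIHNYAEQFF (D6H) with 11 UMIs, and in the control IgG tumor it was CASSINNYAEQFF (D6N) with 4 UMIs. The CDR3s with the next most neighbours as listed were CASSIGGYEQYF with 34, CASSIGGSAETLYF with 30 and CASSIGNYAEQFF with 30, and these numbers were 34, 30 and 29 after merging.

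Of the 11764 Trbv19 tumor CDR3s, 650 were listed in 2 tumor libraries, 50 in 3 and 4 in all 4. The recurrent share was 5.98% for Trbv19 against 6.02% for all TRBC pairs of V region and amino acid CDR3, so recurrence itself did not set Trbv19 apart. Trbv19 stood at place 8 of 22 Trbv genes in the plot of recurrent shares, with Trbv29 highest at 8.14%. Most recurrence was between the libraries with the most clonotypes: 515 of the 704 CDR3s were listed in the BF10 and IL-10-Fc tumors and in no other tumor. The BF10 and IL-10-Fc tumors shared 566 CDR3s (12.7% of those of IL-10-Fc and 8.01% of those of BF10). The control IgG and αCSF1R tumors shared 15 (1.98% of those of control IgG and 6.58% of those of αCSF1R). These 15 include 1-residue variants of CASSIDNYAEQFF with few UMIs. Examples are CASSIDNYAEQFL (8 UMIs in the control IgG tumor and 4 in the αCSF1R tumor) and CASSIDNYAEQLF (7 and 1). Such variants were lost when near-identical clonotypes were merged, and the number shared after merging was not taken. In spleens 10.6% and in tdLNs 12.2% of Trbv19 CDR3s were listed in 2 or more of the 4 libraries. Of the 704 recurrent CDR3s, 502 (71.3%) had no base sequence in common between tumor libraries, and 700 used 1 J region.

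**Figure D2:**
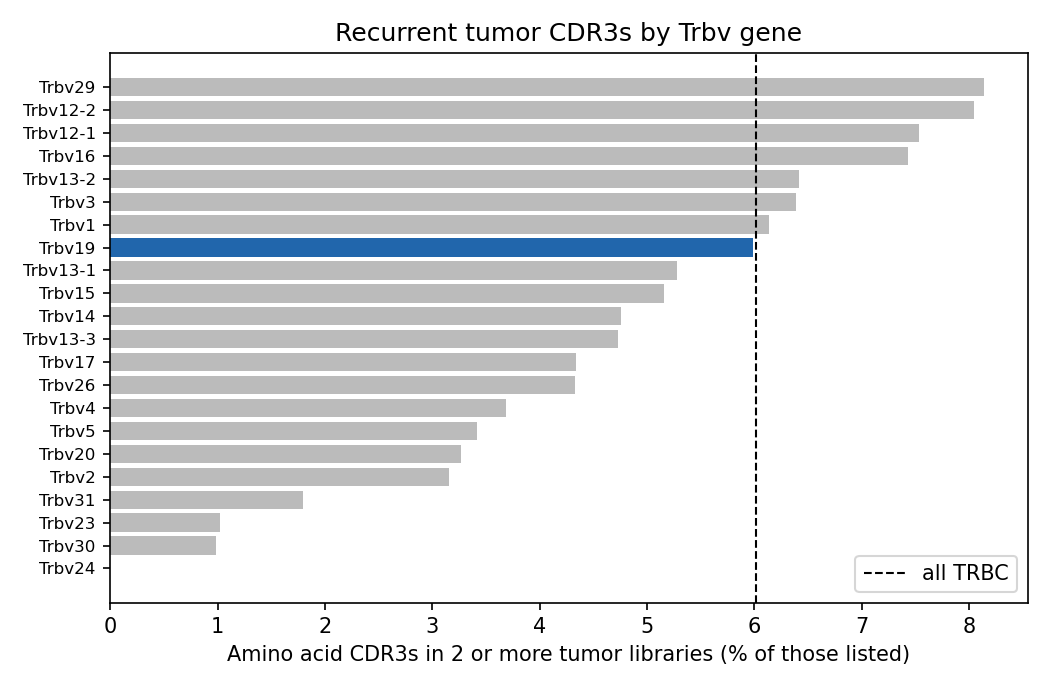
Percentage of the amino acid CDR3s of each Trbv gene listed in the 4 tumor libraries that were listed in 2 or more of them, for the 22 Trbv genes tested, with the value over all TRBC as a dashed line. Trbv19 (5.98%, blue) lies next to that line (6.02%).

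The CDR3s just inside and just outside the threshold differed in size. Those in exactly 2 tumor libraries had a median of 6 tumor UMIs (2 to 282), and those in 1 had a median of 2 (1 to 2816). The recurrent CDR3s held 43.2% of Trbv19 UMIs in the control IgG tumor, 15.9% in the IL-10-Fc tumor, 42.6% in the αCSF1R tumor and 13.4% in the BF10 tumor. Of the CDR3s with at least 0.1% of TRBC UMIs, 2 of 7 in the control IgG tumor, 4 of 9 in the αCSF1R tumor and 0 of 3 in the IL-10-Fc tumor were recurrent. These counts sum all base sequences of a CDR3. Apart from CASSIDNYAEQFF, the recurrent ones among them were large in 1 tumor and had at most 12 UMIs in any other.

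The 4 CDR3s listed in all 4 tumors were small in each. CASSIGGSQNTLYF (Trbj2-4) had 9 UMIs in the control IgG tumor, 32 in the IL-10-Fc tumor, 2 in the αCSF1R tumor and 22 in the BF10 tumor. It was the only recurrent CDR3 listed in all 12 libraries, with 9 to 26 UMIs per spleen and 7 to 25 per tdLN, and 11 base sequences encoded it in tumors, of which 2 are printed above. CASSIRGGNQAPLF (Trbj1-5) had 2, 3, 6 and 3 UMIs in the same order of tumors, and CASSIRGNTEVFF (Trbj1-1) had 2, 5, 1 and 2. The remaining one, of 15 residues with Trbj1-6, had 1, 2, 18 and 3 UMIs, and its most frequent bases in the αCSF1R tumor are shown in place of its residues.
CDR3 of 15 residues, αCSF1R tumor: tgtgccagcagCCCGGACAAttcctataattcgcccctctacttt

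Among the CDR3s in 3 tumors, those with the most tumor UMIs after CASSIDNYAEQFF were led by 1 tumor or spread evenly. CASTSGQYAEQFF (Trbj2-1) had 535 UMIs in the αCSF1R tumor, 12 in the control IgG tumor and 1 in the BF10 tumor, with 21 in the αCSF1R spleen, 19 in the αCSF1R tdLN and 0 in the other spleens and tdLNs. Its leading bases in the αCSF1R and control IgG tumors differed by A21G, with the αCSF1R base first. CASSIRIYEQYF had 54 UMIs in the αCSF1R tumor, 4 in the IL-10-Fc tumor and 5 in the BF10 tumor. The αCSF1R tumor also led for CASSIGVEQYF (29 UMIs, against 1 under IL-10-Fc and 7 under BF10) and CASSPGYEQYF (26 UMIs, against 1 and 3), the latter with 24 UMIs in the αCSF1R spleen. The other 3 were absent from the αCSF1R tumor. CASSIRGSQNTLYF had 28 UMIs in the control IgG tumor, 10 in the IL-10-Fc tumor and 7 in the BF10 tumor, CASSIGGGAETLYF had 17, 5 and 11, and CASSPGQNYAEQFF had 10, 6 and 14. These 3 were each listed in all 4 spleens and all 4 tdLNs.

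The CDR3s in 2 tumors with the most UMIs were mostly large in 1 of them. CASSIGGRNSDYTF had 279 UMIs in the control IgG tumor and 3 in the BF10 tumor and was listed in no spleen or tdLN. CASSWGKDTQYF had 246 UMIs in the αCSF1R tumor and 3 in the BF10 tumor, with 7 in the αCSF1R tdLN and 1 each in the BF10 tdLN and spleen. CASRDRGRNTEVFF had 96 UMIs in the control IgG tumor and 29 in the IL-10-Fc tumor, with 63 in the IL-10-Fc tdLN and 3 in the control IgG tdLN, and the 2 tumors had no bases for it in common. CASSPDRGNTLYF had 103 UMIs in the control IgG tumor and 6 in the BF10 tumor and was listed in all 4 spleens but in no tdLN. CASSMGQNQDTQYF had 76 UMIs in the BF10 tumor and 2 in the IL-10-Fc tumor. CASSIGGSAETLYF was even in size, with 23 UMIs in the IL-10-Fc tumor and 19 in the BF10 tumor, and was listed in all 4 spleens and all 4 tdLNs.

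Within each tumor library, recurrent CDR3s had fewer bases between the germline V and J ends than those of 1 tumor library. These bases include any from a D segment. A sequencing error in a germline end adds to them, since near-identical clonotypes were not merged. The clonotypes of recurrent CDR3s had a mean of 8.58 bases between the germline ends in the control IgG tumor, 7.77 in the IL-10-Fc tumor, 8.62 in the αCSF1R tumor and 7.59 in the BF10 tumor. For CDR3s of 1 tumor library the means were 11.4, 10.8, 12.3 and 10.7. The mean difference was -3.12 ± 0.374 bases (SD, n = 4 libraries) and was below 0 in 4 of 4. The libraries share recurrent CDR3s, so the 4 differences are not independent, here and for the lengths below. The two-sided exact sign-flip permutation test gave p = 0.125, the smallest that 4 libraries allow, and this test therefore cannot pass the usual threshold. Recurrent CDR3s were also shorter, with differences of -0.456, -0.550, -0.144 and -0.545 residues in the same order of tumors (mean difference -0.424 ± 0.191, lower in 4 of 4, exact permutation p = 0.125). The plot of bases between the ends shows the distributions shifted against each other in each tumor, with a wide overlap.

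**Figure D3:**
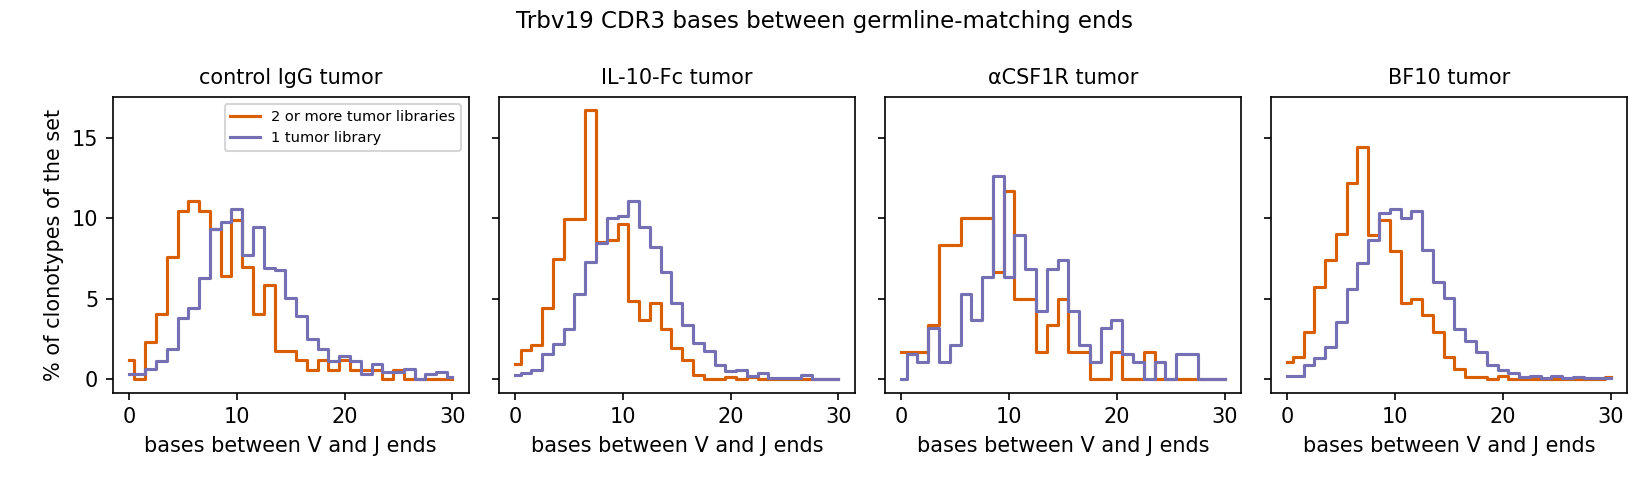
Distribution of the number of CDR3 bases between the germline-matching V and J ends, as a percentage of the Trbv19 clonotypes of each set, for CDR3s listed in 2 or more tumor libraries (orange) and in 1 (purple), in the 4 tumor libraries. The orange distributions lie further left, with means of 7.59 to 8.62 bases against 10.7 to 12.3.

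Residue 5, the last one that the Trbv19 germline end encodes whole, was isoleucine in 57.6% of the clonotypes of recurrent CDR3s in the control IgG tumor against 29.8% for CDR3s of 1 tumor library. The shares were 43.5% against 28.5% in the IL-10-Fc tumor, 63.3% against 25.3% in the αCSF1R tumor and 47.6% against 29.2% in the BF10 tumor. The difference was 24.8 ± 10.3 percentage points (SD, n = 4 libraries, higher in 4 of 4, exact permutation p = 0.125), over libraries that share recurrent CDR3s. Near-identical clonotypes were not merged for these shares. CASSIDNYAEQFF alone gave 6 of the 60 clonotypes of recurrent CDR3s in the αCSF1R tumor and 8 of 172 in the control IgG tumor. Further 1-residue variants of it with this isoleucine, such as CASSIDNYAEQFL and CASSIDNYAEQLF, counted as recurrent in both tumors and were lost on merging. They are also in the counts per CDR3 that follow. Counted once per CDR3, 305 of 704 recurrent CDR3s had this isoleucine (43.3%, 39.7% to 47.0%), and 130 (18.5%) had isoleucine followed by glycine, against 28.5% and 7.11% of CDR3s of 1 tumor library. Between recurrent CDR3s and their 1-residue neighbours, the residue that differed was at position 5 in 30.8% of pairs, at 6 in 23.4%, at 7 in 24.4% and at 8 in 11.8%. Of the recurrent CDR3s, 687 had a neighbour in tumors, with a median of 7, while 64.5% of the CDR3s of 1 tumor library had one, with a median of 1.

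The recurrent CDR3s were listed outside the tumors far more often than the others. Of the 704, 508 were listed in a spleen library and 549 in a tdLN library, and 606 (86.1%, 83.3% to 88.4%) were in either. The remaining 98 were in neither. Of the CDR3s of 1 tumor library, 31.6% were in either, of those in 2 tumor libraries 85.1%, of those in 3 98.0%, and all 4 of those in 4. Since larger CDR3s are listed more readily, the shares were also taken at like numbers of tumor UMIs. At 2 UMIs, 73.7% of recurrent CDR3s (28 of 38, 58.0% to 85.0%) and 29.9% of the others (28.3% to 31.6%) were listed outside tumors. At 6 to 20 UMIs the shares were 89.5% (86.1% to 92.1%) and 40.8% (37.7% to 44.1%), and over 20 UMIs they were 97.7% (43 of 44) and 56.3% (27 of 48). The intervals of the 2 sets did not overlap in any of the 4 size classes. Part of this was set by the selection, since the recurrent CDR3s were chosen for being listed in several libraries. They also have the spleens and tdLNs of 2 or more treatments as their own, against 1 treatment for the others. Like numbers of tumor UMIs do not balance this, and near-identical clonotypes were not merged. This is a description of CDR3s, which are not replicates of a condition. The same shares were not taken for other Trbv genes, so they are not known to be particular to Trbv19.

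**Figure D4:**
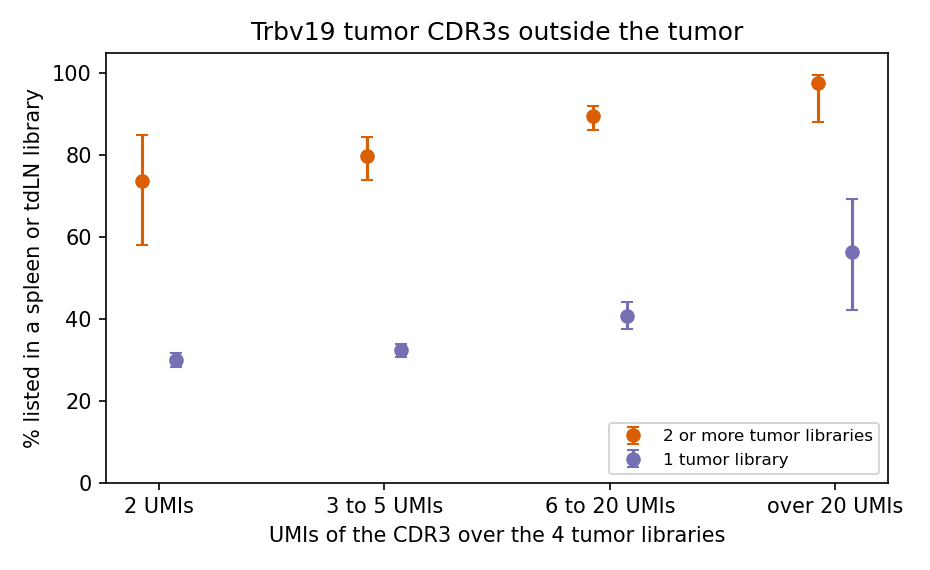
Percentage of Trbv19 tumor CDR3s listed in at least 1 spleen or tdLN library, by the number of UMIs of the CDR3 over the 4 tumor libraries, with 95% Wilson intervals. CDR3s of 2 or more tumor libraries (orange) lie between 73.7% and 97.7%, above those of 1 tumor library (purple) at each size, which lie between 29.9% and 56.3%.

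Trbv19 clonotypes, defined by J region and CDR3 bases, were shared between the tumor and the tdLN of the same treatment. Of the Trbv19 UMIs of the control IgG tumor, 55.3% belonged to clonotypes listed in its tdLN, and the shares were 10.9% under IL-10-Fc, 79.4% under αCSF1R and 8.19% under BF10. The mean of 38.4% compared with 7.39% for the 12 pairs of different treatments, a ratio of 5.20. The ratio moved widely with the definition, from 2.23 with amino acid CDR3s to 32.4 with UMIs of at least 7 reads. The one-sided exact permutation test over the 24 pairings of treatments gave p = 0.0417, the smallest it can give, and a Benjamini-Hochberg adjusted p of 0.0625 over the 3 tissue pairs. The same pairing over all TRBC is known from these data, so Trbv19 is no independent evidence of it. Of the 20 largest Trbv19 clonotypes of each tumor, 4 of control IgG, 7 of IL-10-Fc, 11 of αCSF1R and 7 of BF10 were listed in the tdLN of the same treatment, and at most 1 in the tdLN of any other treatment.

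Single large clonotypes set some of the values between treatments, as the matrix of shares shows. The control IgG tumor had 35.0% of its Trbv19 UMIs in clonotypes listed in the αCSF1R tdLN, and the αCSF1R tumor had 22.2% in the control IgG tdLN and 23.9% in the IL-10-Fc spleen. Each of these values rested on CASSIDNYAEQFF, at the 1 or 2 UMIs given above. Without the leading Trbv19 clonotype of each tumor library, the 3 values were 4.00%, 0.472% and 2.62% of the remaining Trbv19 UMIs, while the values of the same treatment in tdLNs were 33.9% under control IgG, 8.22% under IL-10-Fc, 73.6% under αCSF1R and 7.60% under BF10. Large clonotypes also made up most of the same-treatment values of control IgG and αCSF1R. In the αCSF1R tumor the 3 largest held 21.9%, 18.5% and 14.5% of Trbv19 UMIs, with 8, 8 and 22 UMIs in the αCSF1R tdLN. All but the first of these stayed in when the leading clonotype was left out. In the control IgG tumor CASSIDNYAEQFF held 32.3% of Trbv19 UMIs, with 2 UMIs in the control IgG tdLN. The next largest, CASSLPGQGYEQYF, held 20.3%, with 9 UMIs in that tdLN, and stayed in when the leading clonotype was left out.

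Between tumor and spleen, 2.70% of the Trbv19 UMIs of control IgG, 8.99% of IL-10-Fc, 12.2% of αCSF1R and 4.75% of BF10 were in clonotypes listed in the spleen of the same treatment. The mean of 7.15% compared with 4.36% for different treatments, a ratio of 1.64 (exact permutation p = 0.292, adjusted p = 0.292), and this test did not pass. The outcome depended on the definition. With amino acid CDR3s the direction turned, at a ratio of 0.846 (exact permutation p = 0.708). Without the leading clonotypes, an alternative chosen after seeing the data, the ratio was 2.90 (exact permutation p = 0.0417, not adjusted). Between spleen and tdLN the mean was 5.98% for the same treatment and 4.51% for different ones, a ratio of 1.33 (exact permutation p = 0.0417, adjusted p = 0.0625), and this ratio was 1.05 with amino acid CDR3s and 2.27 with the Morisita-Horn index.

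**Figure D5:**
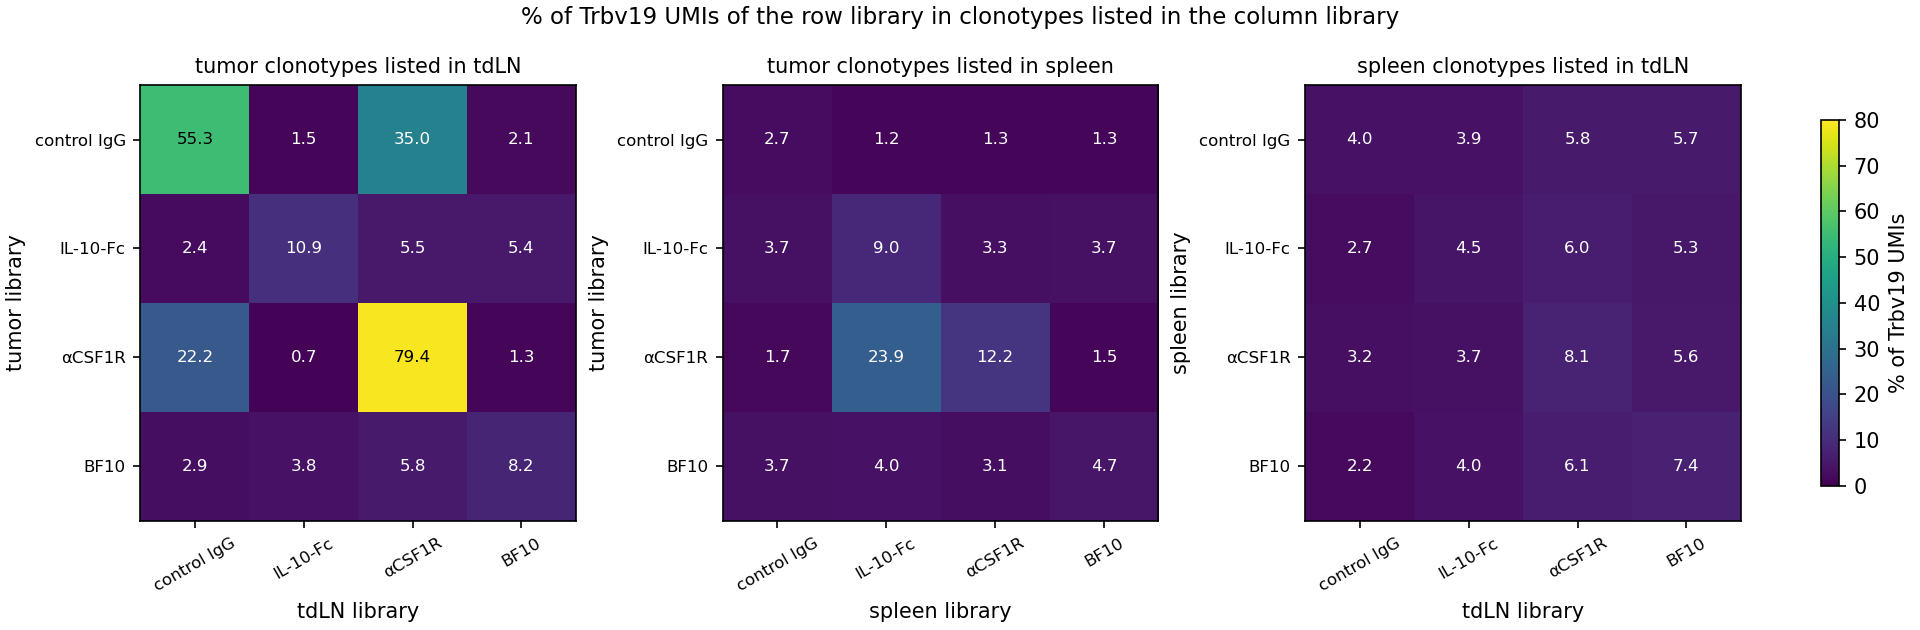
Percentage of the Trbv19 UMIs of 1 library (vertical) that belong to clonotypes listed in another library (horizontal), for tumor with tdLN, tumor with spleen and spleen with tdLN. The diagonal holds pairs of the same treatment, with 55.3%, 10.9%, 79.4% and 8.19% for tumor with tdLN, and the high values off the diagonal (35.0%, 22.2% and 23.9%) rest on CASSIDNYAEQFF.

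The J region with the largest share of Trbv19 UMIs was Trbj2-1 in tumors, at 27.2% ± 12.2 (SD over 4 treatments, 15.6% to 40.9%), and Trbj2-7 in spleens (16.9% ± 0.622) and tdLNs (16.3% ± 1.31). In clonotypes, Trbj2-1 took 17.2% ± 1.65 of Trbv19 in tumors and 15.4% ± 0.632 in spleens. The Trbj2 cluster took 81.3% of Trbv19 UMIs in the control IgG tumor and 76.4% in the αCSF1R tumor, against 65.8% under IL-10-Fc and 66.7% under BF10. In clonotypes it took 64.8%, 68.8%, 66.5% and 65.2% of Trbv19 in the order control IgG, αCSF1R, IL-10-Fc and BF10, a narrower range than in UMIs. The clonotypes of recurrent CDR3s used Trbj2-1 in 20.6% and Trbj1-1 in 13.5%, against 15.1% and 10.6% for CDR3s of 1 tumor library. The use of the Trbj2 cluster did not separate the 2 sets. The difference was 1.47 ± 2.90 percentage points (exact permutation p = 0.5) over the 4 tumors, which share recurrent CDR3s.

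The mean length of Trbv19 CDR3s was 13.7 to 13.8 residues per clonotype in 11 libraries and 13.3 in the αCSF1R tumor. In that tumor 5.6% of Trbv19 clonotypes had 9 residues, the length of 1 of its large clonotypes (865 UMIs). Near-identical clonotypes were not merged for these means. Weighted by UMIs, the mean length was 13.4 in the control IgG tumor and 12.6 in the αCSF1R tumor, and 13.7 in the IL-10-Fc and BF10 tumors. Isoleucine at residue 5 was found in 30.9% to 37.1% of the Trbv19 clonotypes of a library, with the lowest value in the IL-10-Fc tumor and the highest in the BF10 tdLN.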

How the data were processed

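CD8+ T cell RNA, 100 ng per library, was made into 12 libraries with a mouse TCR kit that tags cDNA with UMIs. The authors processed the reads in the kit supplier's portal. They deposited UMI counts per clonotype at 3 to 7 minimum reads without normalization, a fraction of each library and chain, and a rank. The fraction and rank were not used. The germline reference and error correction of the portal are not given in the sources used here. All read sets were mapped to samples by title, and 0 were left over.

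Here, rows with chain TRBC and V region V19 were taken at 3 reads. Rows with an undetermined residue (36) were left out of sets of amino acid CDR3s. Germline ends are those of the GRCm38 genome at the gene positions of the GENCODE annotation. The longest match to the V end and to the J start was removed from each CDR3, and the bases left were counted without a D match or sequencing errors taken into account. As a check of the J starts, 98.9% to 99.3% of Trbv19 clonotypes ended in the last 9 bases of their J start. Groups followed the labels. Shares have 95% Wilson intervals, and a count of 0 was read as at most 3 UMIs. Folds between Trbv shares have 95% intervals for counts, and Trbv genes of at least 0.1% mean share were tested. With 1 library per treatment and tissue, tests were made only over pairings of treatments between tissues and over the 4 tumor libraries. The alternatives were 7 reads per UMI, 2 UMIs per clonotype, clonotypes in place of UMIs, other definitions of a shared CDR3, merging of near-identical sequences (1 base, 10-fold), equal depth, leaving out leading clonotypes and leaving out each tumor library.

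The members, lists and tests were chosen with earlier results of these data known. Named were the leading Trbv19 clonotype of each library, the CDR3s in 4 tumor libraries, the 8 in 3 and the 6 in 2 with the most tumor UMIs, the 3 with the most neighbours (4, since 2 tied), the leading J region of each tissue, the 3 Trbv genes with the highest correlation and the 2 next in order. CDR3s of over 14 residues are given by their bases or counted only. The neighbours named and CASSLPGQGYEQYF were chosen after their values were seen. The steps were tested on simulated data. Python 3.11.15, numpy 2.4.6, pandas 2.3.3 and matplotlib 3.10.9 were used.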

Additional observations from a re-analysis of the deposited data

Results flagged for a closer look

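The Trbv19 share of TRBC UMIs under IL-10-Fc differed from that under control IgG in opposite directions in the tissues. It was 0.812-fold that of control IgG in tumors (0.794 to 0.830) and 1.04-fold in spleens (1.02 to 1.07), with 1 library for each treatment and tissue, and the difference between the tissues was not tested. In tdLNs the fold was 0.989 (0.967 to 1.01). Without the leading Trbv19 clonotype of each library, the IL-10-Fc tumor share (10.4%) was above that of the control IgG tumor (9.32%).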

How the results depend on the processing

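The Trbv19 share of the BF10 tumor over that of the control IgG tumor was 0.771 and moved to 0.812 with UMIs of at least 7 reads, 0.854 with clonotypes of at least 2 UMIs and 0.993 in clonotypes. It turned to 1.08 without the leading Trbv19 clonotype of each library and to 1.01 without clonotypes of at least 0.1% of TRBC UMIs, the latter chosen after seeing the data. No V19 row named a second V region, so other V assignments gave no value. The number of recurrent Trbv19 CDR3s (704) was 436 with clonotypes of at least 2 UMIs, 379 at the smallest Trbv19 UMI total of the 4 tumors, 229 when nucleotide CDR3s were counted in place of amino acid CDR3s, and 104 to 668 when each tumor library was left out, lowest without the BF10 tumor (104) and next without the IL-10-Fc tumor (147). It was 472 with at least 7 reads, 701 with the same J region, 694 after merging (all 694 among the 704), and 704 without matches of equal bases at a 100-fold difference in UMIs. The share of recurrent CDR3s listed in a spleen or tdLN was 86.1% and moved to 78.2% with at least 7 reads and 80.3% with at least 2 UMIs. The ratio of same to different treatment for tumor with tdLN was 2.23 to 32.4 over the 5 alternatives, and that for spleen with tdLN 1.05 to 2.27, each with an exact permutation p of 0.0417. For tumor with spleen, the ratio of 1.64 was 1.41 with the Morisita-Horn index and 2.90 without the leading clonotype of each tumor library (chosen after seeing the data), both with exact permutation p = 0.0417, and turned to 0.846 with amino acid CDR3s (exact permutation p = 0.708). The mean differences in bases and in length between recurrent CDR3s and those of 1 tumor library kept their sign in the alternatives run. Weighted by UMIs they were -3.90 bases (exact permutation p = 0.125) and -0.272 residues (exact permutation p = 0.5), with the length turned in the αCSF1R tumor, where recurrent CDR3s were longer (12.9 against 12.3 residues). The cause of the changes was not tested beyond what each alternative leaves out. The αCSF1R tumor had the lowest depth, and a count of 0 there allows a share of up to 0.00915% of TRBC UMIs (3 UMIs).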

Other observations

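Many recurrent Trbv19 CDR3s were also joined to other V genes. Of the 704, 315 (44.7%) were listed in a tumor library with another Trbv gene, against 20.8% of the Trbv19 CDR3s of 1 tumor library. The like share was not taken for the recurrent CDR3s of other Trbv genes. Recurrence was wider in the lymphoid tissues: 164 Trbv19 CDR3s were listed in all 4 spleens and 274 in all 4 tdLNs, while 4 were listed in all 4 tumors. The libraries of these tissues held more Trbv19 clonotypes than most tumor libraries (5801 to 8711 in spleens and 5959 to 13725 in tdLNs), and the part of depth in this was not tested.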
